A study of Mus musculus with 6 samples.

Results

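The 37 genes described here encode small secreted or membrane-bound inhibitors of serine proteases. They are the rows of a table of 36842 mouse genes that carry a Spink, Spint or Wfdc symbol followed by a number, together with Slpi and Eppin. By symbol, 12 are Spink genes, 5 are Spint genes and 20 are genes of the WAP (whey acidic protein) domain, among them Slpi and Eppin. The rule reads names and no measured value, but it was written with earlier results of these data known. The table gives RNA levels as FPKM, fragments per kilobase of transcript length, scaled to library depth, in 6 libraries. The 3 libraries called CP are labelled as GC-2spd(ts), an immortalised line derived from mouse spermatocytes, of wild-type genotype (WT), after 24 h with 2 mM cyclophosphamide, an alkylating drug. The 3 called Sal_CP carry the same labels and had 100 µM salidroside, a plant phenylethanoid glycoside, over the same 24 h as the 2 mM cyclophosphamide. Every library therefore comes from drug-exposed material, and the labels also give testis as the source. Untreated cells are not analysed here, and no label says that the libraries of a group were separate cultures, and the p-values therefore speak only to how far these libraries scatter.

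Serine protease inhibitors of these families hold a protease by offering a rigid loop that is cut slowly or not at all. Spink proteins carry Kazal domains, Spint proteins carry Kunitz domains, and WAP domains are compact folds tied by disulfide bonds. In the male tract the epithelium of the epididymis secretes many of them onto maturing sperm, and spermatids make Spink2, which is stored in the acrosome and restrains acrosin there. Slpi, Spint1 and Spint2 are inhibitors of mucosal and other epithelia, and Slpi also blocks neutrophil elastase. From such knowledge, 20 members were classed as epididymal, 1 as spermatid (Spink2), 3 as broadly epithelial, 2 as leukocyte or inflammation genes, 9 as genes of other epithelia or stroma, and 2 (Wfdc3 and Spink14) were left without a class.

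Marker genes went against the label of a cultured spermatocyte line in part. Prm2, a protamine of late spermatids, ranged from 7315 to 21422 FPKM, and Crisp1, secreted by the epididymis, from 1423 to 3521 FPKM. Among meiosis markers, Sycp3 of the chromosome axis stayed between 1.39 and 3.75 FPKM, while Syce1 of the synaptonemal complex reached 22.1 to 56.7 FPKM. The 18 meiosis markers summed to 431 to 570 FPKM in Sal_CP and 253 to 492 FPKM in CP. Only 5 of the 18 averaged 1 FPKM or more, so the sums rest on a few genes. Most of each sum came from meiosis markers other than Sycp3 and Syce1, which are not named here. The proliferation marker Mki67 stayed between 0.428 and 1.41 FPKM. Of 29 epididymal markers, 27 were listed and 3 of them (Lcn9, Defb41 and Bsph1) were listed at 0 in every library. Epididymal markers other than Crisp1 ranged widely. Lcn5 was at most 0.498 FPKM, Lcn8 at most 1.69 FPKM and Gpx5 between 1.69 and 3.90 FPKM. Adam7 ranged from 53.7 to 80.9 FPKM and Cst8 from 18.4 to 63.5 FPKM. Of the 27, 13 averaged 1 FPKM or more. The summed level of the 27, most of it Crisp1, was 2312 to 3238 FPKM in Sal_CP and 4312 to 4858 FPKM in CP. Most of the remainder came from listed epididymal markers other than those just given. If the RNA came from more than 1 cell type, fewer cells of a type and less RNA per cell could not be told apart. The smallest steps of the FPKM values correspond to about 16.5 to 22.0 M fragments per library, the highest in Sal_CP replicate 1.

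Of the 37 inhibitors, 36 were above 0 in at least 1 library. Together they held 0.200 to 0.327% of a library's summed FPKM with salidroside and 0.402 to 0.439% without. The 20 epididymal members made up 91.6 to 95.3% of that sum in every library. A mean of at least 1 FPKM was reached by 25 members, of which 17 were above 10 FPKM and 4 above 100 FPKM. These 4 were Spink8, Wfdc10, Wfdc15b and Wfdc16, all of the epididymal class, and the spermatid member Spink2 averaged 18.7 FPKM over the 6 libraries.

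**Figure D1:**
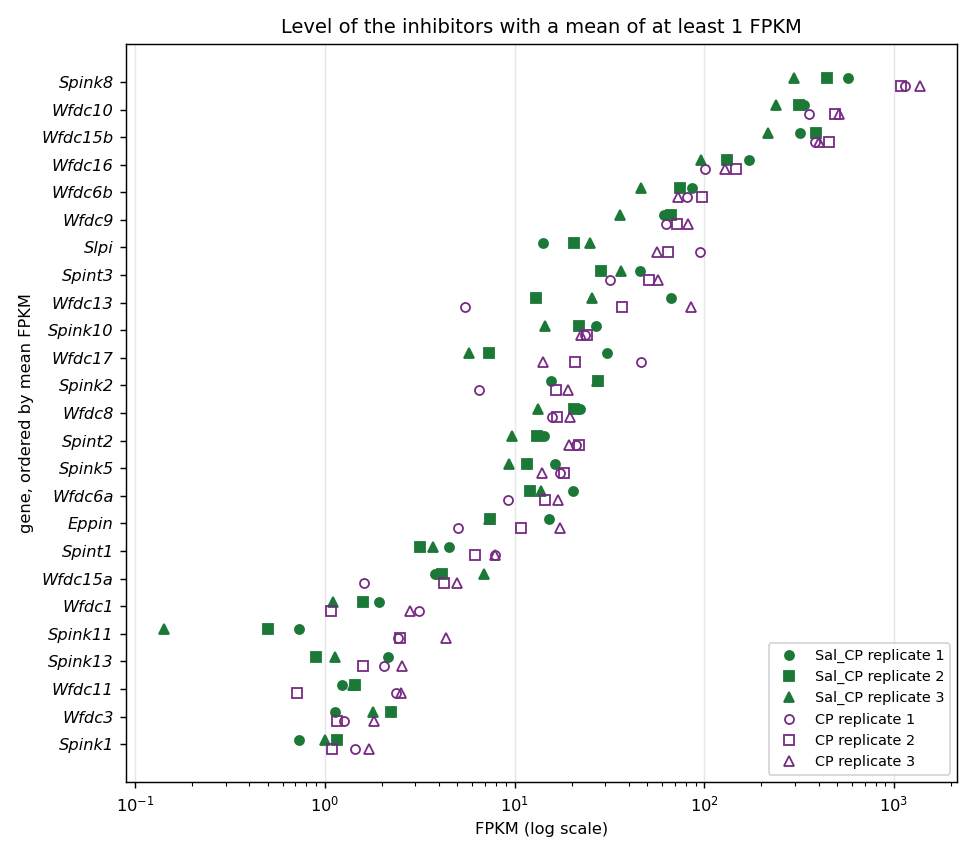
FPKM of the 25 inhibitors with a mean of at least 1 FPKM, on a log axis, with 1 symbol per library and genes ordered by mean. Spink8 (295 to 1364 FPKM) lies at the top, and the 6 libraries of Wfdc13 spread from 5.51 to 85.0 FPKM. The groups stand apart for Spink8, Slpi, Spink11, Spint1, Spint2 and Wfdc10.

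limma on log2(FPKM + 1) called 0 of the 25 tested inhibitors at an adjusted p below 0.05, against 0.0735% of the 12241 genes tested. At an unadjusted p below 0.05 there were 5 inhibitors, all lower in Sal_CP, where 6.77% of all tested genes were lower and 10.7% passed in either direction. In 6 of 25 inhibitors every Sal_CP library lay below every CP library, and in 0 every Sal_CP library lay above, against 10.0% and 7.21% of all tested genes. The 6 were Spink8, Slpi, Spink11, Spint1, Spint2 and Wfdc10. Of these, Spink11 passed the filter of 1 FPKM only through its CP libraries. The log2 change lay below 0 in 18 of 25 inhibitors, against 60.5% of all genes, with a median of -0.31 beside -0.12 for all genes tested. Among the 18, Spink1 as well as Spink11 passed the filter only through CP libraries, so the filter favoured their direction. In the authors' deposited table, made by a test that no source used here names, 3 inhibitors (Spink8, Slpi and Spink11) were marked significant, against 0.605% of the genes above 0.

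Among the epididymal members, Spink8, a Kazal-type inhibitor of the epididymis, was the most abundant of all inhibitors and ranked 60 among all genes by mean FPKM. It measured 570, 444 and 295 FPKM in Sal_CP replicates 1, 2 and 3 and 1140, 1082 and 1364 FPKM in CP replicates 1, 2 and 3. The highest Sal_CP library was thus well below the lowest CP library. Sal_CP libraries averaged 437 ± 137 FPKM and CP libraries 1195 ± 149 FPKM (mean ± SD of 3), and CP was 2.74-fold above Sal_CP. The log2 change was -1.50 (SE 0.35, 95% interval -2.25 to -0.74), with a limma adjusted p of 0.206. The authors' deposited table gives a q of 0.00112 for it. Spink8 (ENSMUSG00000050074, protein-coding) lies on chromosome 9 from 109812280 to 109826633 on the plus strand, by GENCODE M21 on the GRCm38 build.

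Spink11, a Kazal gene on chromosome 18, had the same order of groups at a far lower level. It measured 0.734, 0.501 and 0.142 FPKM in Sal_CP and 2.42, 2.49 and 4.37 FPKM in CP, and Sal_CP replicate 3 was the lowest. CP averaged 3.09 ± 1.11 and Sal_CP 0.459 ± 0.298 FPKM (mean ± SD of 3), a ratio of 6.73. The log2 change was -1.48 (SE 0.27) with a limma adjusted p of 0.0948, and the authors' deposited table gives a q of 0.000560. Its mean over the 6 libraries, 1.78 FPKM, passed the filter of 1 FPKM only through the CP libraries. Its limma result and its place in the counts therefore depend on the group where it was high. The pseudocount understates the change of a gene at this level: with a pseudocount of 0.1 the log2 change was -2.64. The other Kazal genes of the epididymal class did not show this order. Spink10 measured 26.9, 22.0 and 14.4 FPKM in Sal_CP and 23.7, 24.2 and 22.5 FPKM in CP, with overlapping groups. Spink13, known in the rat for a part in sperm maturation, measured 2.17, 0.903 and 1.13 against 2.04, 1.60 and 2.56 FPKM. Their log2 changes were -0.19 (adjusted p 0.751 in limma) and -0.38 (adjusted p 0.531).

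Most of the WAP and Kunitz members lie close together on chromosome 2. The family holds 20 genes on that chromosome, of which 19 fall between 164176327 and 164745931, and 9 more inhibitors, all Spink genes, are on chromosome 18. The chromosome 2 genes run from Wfdc5 to Wfdc3, and 14 of them, starting at Wfdc2, form a dense stretch. That stretch mixes abundant genes with genes near 0. Wfdc10 averaged 374 FPKM over the 6 libraries, Wfdc11, the next gene, 1.62 FPKM, and Wfdc13 38.9 FPKM. Spint4, Spint5 and Wfdc2 averaged below 1 FPKM in the same stretch.

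**Figure D2:**
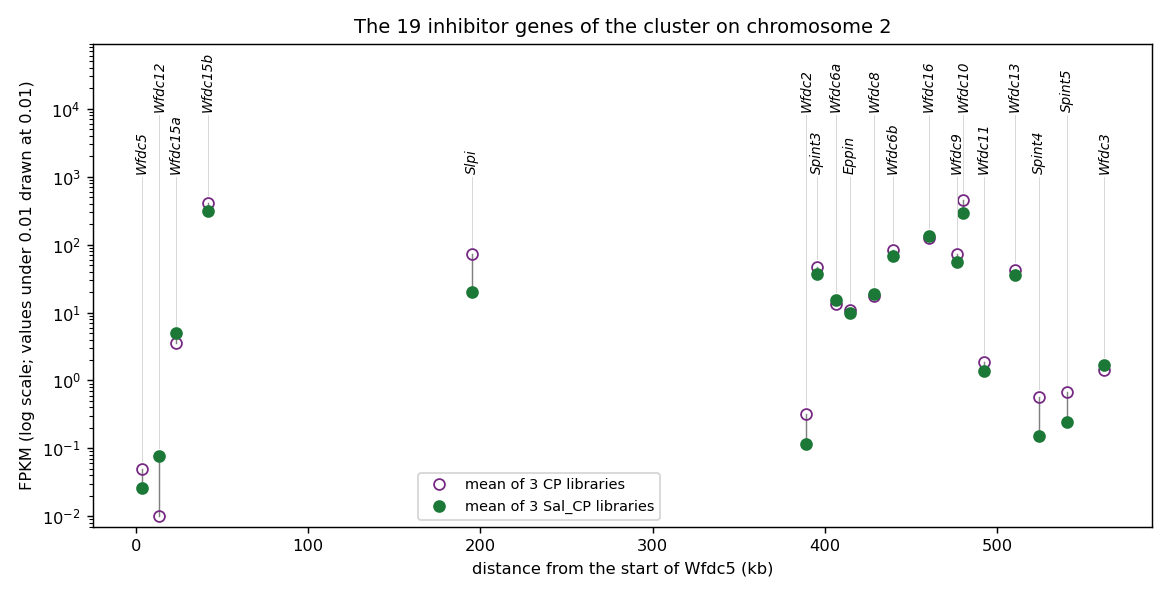
Mean FPKM (log axis) of the 19 inhibitor genes on chromosome 2 against distance from the start of Wfdc5 in kb, with open symbols for CP and filled symbols for Sal_CP (3 libraries each). Neighbours differ in level by orders of magnitude, and Slpi shows the widest gap between groups among the genes above 10 FPKM (72.1 in CP and 19.9 in Sal_CP).

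In the dense stretch from Wfdc2 to Wfdc3, 11 of 14 genes were tested. limma called 0 of them, 6 lay below 0 and 5 above, with a median log2 change of -0.06. Their summed level was 828, 671 and 517 FPKM in Sal_CP and 673, 936 and 997 FPKM in CP, so the groups overlapped. Wfdc10 measured 337, 314 and 237 FPKM in Sal_CP and 357, 487 and 510 FPKM in CP. The groups did not overlap, but the nearest libraries, at 337 and 357 FPKM, were close. The log2 change was -0.61 (SE 0.33, 95% interval -1.33 to 0.11), adjusted p 0.481 in limma. Wfdc9, which lies on the other strand and whose annotated span overlaps that of Wfdc10, measured 61.3, 66.6 and 35.7 FPKM against 62.6, 71.7 and 82.0 FPKM (log2 change -0.44, adjusted p 0.556). Wfdc16 measured 171, 131 and 96.2 FPKM in Sal_CP and 101, 147 and 128 FPKM in CP, with a log2 change of 0.06 (SE 0.34, 95% interval -0.69 to 0.81). Its highest and its lowest library were both Sal_CP libraries.

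Wfdc13 was the most uneven of the abundant inhibitors. It measured 67.0, 13.0 and 25.7 FPKM in Sal_CP and 5.51, 37.0 and 85.0 FPKM in CP, a 15.4-fold range with the extremes both in CP. Spint3, a Kunitz gene, measured 45.6, 28.6 and 36.6 against 31.8, 51.4 and 56.7 FPKM. Eppin carries a WAP and a Kunitz domain and coats sperm, where the human protein binds semenogelin. It measured 15.2, 7.45 and 7.34 FPKM in Sal_CP and 5.02, 10.8 and 17.3 FPKM in CP, and its log2 change of -0.06 had a 95% interval from -0.97 to 0.84. In Wfdc13, Spint3 and Eppin, Sal_CP replicate 1 was the highest of its group and CP replicate 1 the lowest of its group. Wfdc10, Wfdc16, Wfdc8 and Wfdc6a of the same stretch had the same order, while Wfdc9, Wfdc6b, Wfdc11 and Wfdc3 did not. Wfdc8 measured 22.0, 20.5 and 13.3 FPKM in Sal_CP and 15.8, 16.7 and 19.6 FPKM in CP, with a log2 change of 0.07 (SE 0.30).

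Wfdc6a and Wfdc6b are near-copies, and their separate values are uncertain. Their annotated transcripts share a run of 326 identical bases, longer than the 150-base reads, and no other of the 666 pairs of inhibitors shared a run of 50 bases. Wfdc6b measured 86.1, 74.2 and 46.5 FPKM in Sal_CP and 81.0, 97.0 and 72.9 FPKM in CP. Wfdc6a measured 20.3, 12.1 and 13.7 against 9.21, 14.4 and 16.9 FPKM. The sum of the pair was 84.3 ± 23.1 FPKM with salidroside and 97.1 ± 12.4 FPKM without (mean ± SD of 3), and the libraries overlapped. Wfdc6b also overlaps Wfdc8 by 105 exonic bases on the opposite strand. The libraries kept strand per the labels' protocols, but whether the counting used it is not given in the sources used here.

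At the other end of the cluster, Wfdc15b, an antimicrobial WAP protein of kidney and epididymis in the mouse, measured 320, 390 and 217 FPKM in Sal_CP and 382, 453 and 404 FPKM in CP. Sal_CP replicate 2 lay above CP replicate 1, and the log2 change of -0.46 (SE 0.34) had a limma adjusted p of 0.543. Its neighbour Wfdc15a measured 3.79, 4.14 and 6.87 FPKM in Sal_CP and 1.60, 4.25 and 4.99 FPKM in CP, with a log2 change of 0.41 (SE 0.34). Wfdc11 measured 1.24, 1.45 and 1.40 against 2.36, 0.716 and 2.54 FPKM, so CP held both its highest and its lowest library. Over all 16 tested epididymal members, limma called 0, 11 lay below 0 and 5 above, and the median log2 change was -0.26, where that of all genes was -0.12. With 1 library left out it ran from -0.48 (without Sal_CP replicate 1) to -0.11 (without Sal_CP replicate 3). Groups did not overlap in 3 of the 16 (Spink8, Spink11 and Wfdc10), against 10.0% of all genes. The sum over all 20 epididymal members was 1751, 1531 and 1049 FPKM in Sal_CP and 2224, 2502 and 2800 FPKM in CP, without overlap. Without Spink8 the sum was 1181, 1087 and 754 FPKM against 1083, 1420 and 1436 FPKM, and the groups overlapped. Spink8 made up 30.8, 27.4 and 26.0% of all inhibitor FPKM in Sal_CP and 47.0, 40.7 and 46.4% in CP.

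**Figure D3:**
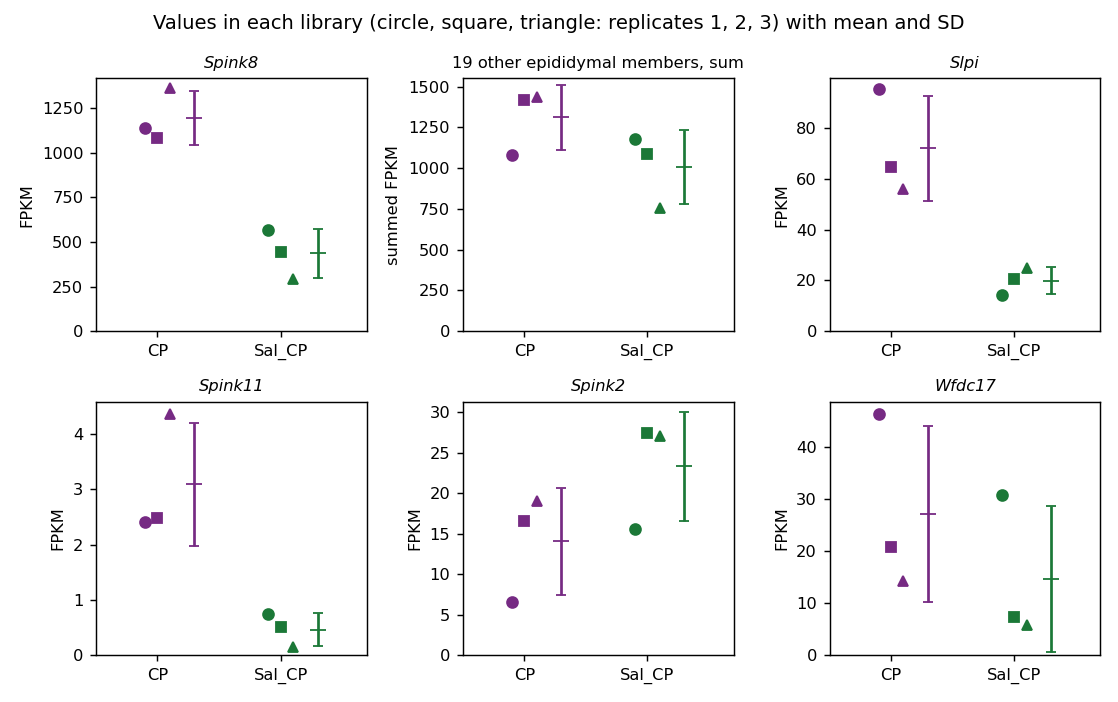
Values in each library for Spink8, the summed 19 other epididymal members, Slpi, Spink11, Spink2 and Wfdc17, with circles, squares and triangles for replicates 1, 2 and 3 and the mean with its SD (n = 3) beside them. The groups stand apart for Spink8, Slpi and Spink11 and overlap for the other panels.

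Spink2, the spermatid member, lay in the other direction. It measured 15.6, 27.4 and 27.1 FPKM in Sal_CP and 6.52, 16.5 and 19.1 FPKM in CP. Replicate 1 was the lowest of each group, and Sal_CP replicate 1 lay below CP replicates 2 and 3, so the groups overlapped. The means were 23.3 ± 6.75 and 14.0 ± 6.64 FPKM (SD, n = 3 each), and the log2 change was 0.77 (SE 0.40, 95% interval -0.10 to 1.65) with a limma adjusted p of 0.474. Spink2 (ENSMUSG00000053030, protein-coding) lies on chromosome 5 from 77205107 to 77211471 on the minus strand. Its target acrosin, encoded by Acr, measured 4.31, 7.99 and 7.28 FPKM in Sal_CP and 2.76, 2.27 and 4.72 FPKM in CP, with a log2 change of 0.83 (adjusted p 0.438). Acrbp, which holds proacrosin in the acrosome, measured 11.8, 13.5 and 12.9 against 3.47, 6.91 and 9.02 FPKM, with a log2 change of 0.95 (adjusted p 0.416). Of the 22 acrosomal and sperm serine proteases and partners listed, 16 were tested, limma called 0, and all 16 lay above 0, with a median of 0.50. Of all tested genes, 60.5% lay below 0. Every Sal_CP library lay above every CP library in 4 of the 16, against 7.21% of all tested genes. Spermatid markers lay the same way: 20 of 20 were tested and above 0 (median 0.49), 0 were called, and none was at 0. The groups overlapped in most of them. Every Sal_CP library lay above every CP library in only 1 of the 20, against 7.21% of all tested genes. The smallest p belonged to Izumo1 (0.61, adjusted p 0.446 in limma) and Acrv1 (0.75, adjusted p 0.447). The summed level of all 20 was 51189 to 85964 FPKM in Sal_CP and 35520 to 59817 FPKM in CP. The part of these markers in the level of Spink2 was not tested.

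Set against Spink2 within each library, where any scaling of a library cancels, the summed epididymal members were 113, 55.8 and 38.8 times as abundant in Sal_CP and 341, 152 and 147 times in CP. The groups did not overlap. The log2 ratio averaged 5.96 ± 0.78 with salidroside and 7.62 ± 0.69 without (mean ± SD of 3), a difference of -1.65. Without Spink8 the ratios were 75.9, 39.6 and 27.8 against 166, 86.0 and 75.2, and Sal_CP replicate 1 lay just above CP replicate 3. No test was made of these ratios, since the members were brought together with results of these data known.

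The broadly epithelial inhibitors were lower in every Sal_CP library than in any CP library. Slpi, the secretory leukocyte protease inhibitor, measured 14.2, 20.5 and 25.0 FPKM in Sal_CP and 95.5, 64.6 and 56.2 FPKM in CP. The means were 19.9 ± 5.43 and 72.1 ± 20.7 FPKM (SD, n = 3 each), and CP was 3.62-fold above Sal_CP. The log2 change of -1.80 (SE 0.34, 95% interval -2.55 to -1.06) was the furthest from 0 among the 25 tested inhibitors, with a limma adjusted p of 0.103. The authors' deposited table gives a q of 0.00840. Slpi (ENSMUSG00000017002, protein-coding) spans 164354070 to 164389095 on chromosome 2, on the minus strand. Spint1 and Spint2 are membrane-anchored Kunitz inhibitors of matriptase and related proteases. Spint1 measured 4.52, 3.17 and 3.72 FPKM in Sal_CP and 7.87, 6.18 and 7.85 FPKM in CP, with a log2 change of -0.79 (SE 0.25, adjusted p 0.376 in limma). Spint2 measured 14.4, 13.1 and 9.72 against 21.0, 21.8 and 19.4 FPKM, with a log2 change of -0.72 (SE 0.28, adjusted p 0.444). Spint2 was therefore 1.68-fold and Spint1 1.92-fold higher in the CP means.

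Epithelial and neutrophil markers were mostly lower in Sal_CP beside these 3 genes. Of 17 epithelial junction and keratin markers, all tested and none at 0, 16 lay below 0 (median -0.94) against 60.5% of all tested genes, and limma called 0. Every Sal_CP library lay below every CP library in 14 of them, against 10.0% of all tested genes. Their sums overlapped, at 571 to 730 FPKM in Sal_CP and 671 to 886 FPKM in CP, and the smallest p belonged to Krt19 (-1.81, adjusted p 0.153 in limma) and Cldn4 (-1.46, adjusted p 0.229). Of 10 neutrophil markers 4 were tested and all 4 lay below 0. The sums over the list were 56.9 to 82.5 FPKM in Sal_CP and 134 to 152 FPKM in CP. Most of each sum was Ltf, also listed as an Eppin partner, at 46.3 to 72.7 FPKM in Sal_CP and 99.8 to 134 FPKM in CP. Elane, the elastase that Slpi inhibits, was listed at 0 in every library. S100a9 measured 1.17, 1.84 and 1.02 FPKM against 9.14, 12.0 and 3.07 FPKM (adjusted p 0.153 in limma), and Retnlg had a log2 change of -1.21 (adjusted p 0.274). The part of either cell type in the levels of Slpi, Spint1 and Spint2 was not tested. Among 24 epithelial and leukocyte serine proteases 7 were tested, and 0 were called. All 7 lay below 0 with a median of -0.70, among them Tmprss2 (-0.70, adjusted p 0.378) and Prss8 (-0.88, adjusted p 0.411). Tmprss2 was below 1 FPKM in every Sal_CP library and passed the filter only through its CP libraries, which favoured its direction. St14, which encodes matriptase, ranged from 2.79 to 4.67 FPKM in Sal_CP and 5.59 to 7.70 FPKM in CP.

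**Figure D4:**
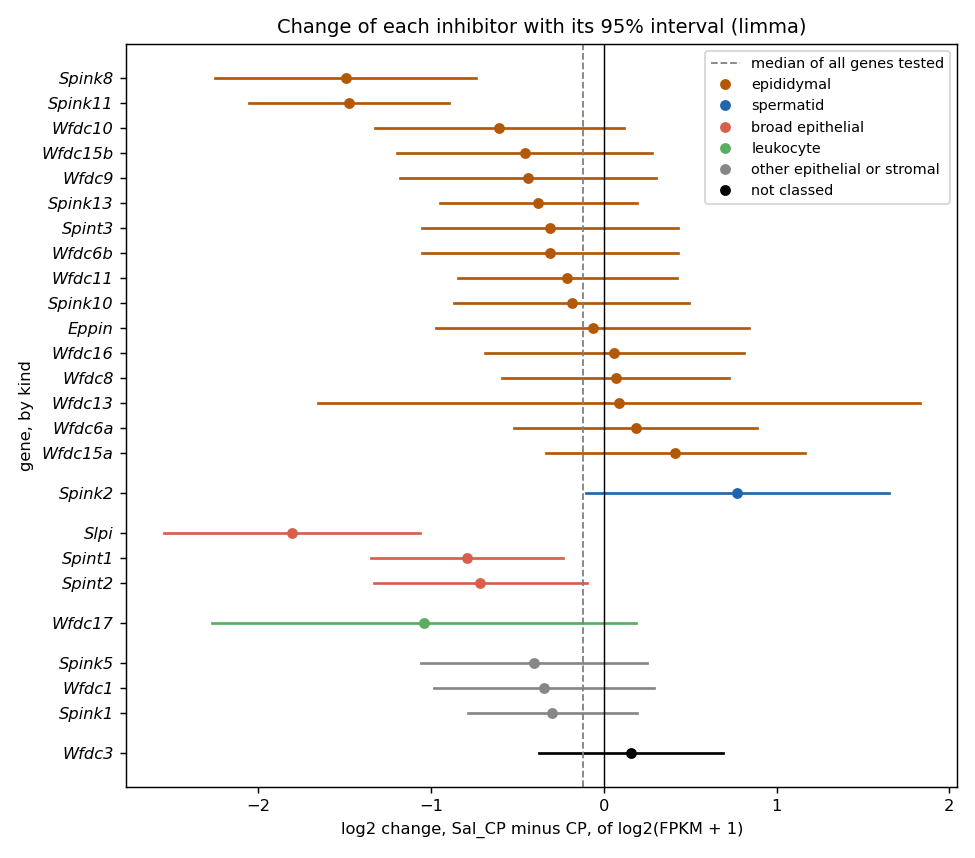
Log2 change (Sal_CP minus CP, of log2(FPKM + 1)) of the 25 tested inhibitors with the 95% interval from limma, ordered within each kind, and a dashed line at the median of all genes tested (-0.12). The intervals of Spink8, Spink11, Slpi, Spint1 and Spint2 lie below 0, that of Spink2 reaches from -0.10 to 1.65, and the other intervals span 0.

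Wfdc17, a WAP gene of macrophages in the mouse, measured 30.7, 7.31 and 5.79 FPKM in Sal_CP and 46.3, 20.8 and 14.1 FPKM in CP. Replicate 1 was the highest of each group, and the log2 change of -1.04 (SE 0.56, 95% interval -2.27 to 0.19) had a limma adjusted p of 0.481. Without Sal_CP replicate 1 the change was -1.73 (adjusted p 0.0727 in limma), and without CP replicate 1 it was -0.58 (adjusted p 0.83). The macrophage marker Csf1r was also highest in replicate 1 of each group, at 25.4, 8.17 and 4.47 FPKM in Sal_CP and 13.7, 6.83 and 5.88 FPKM in CP. All 12 macrophage markers were tested, none was at 0, 8 lay below 0 (median -0.03), and their sums were 224 to 1221 FPKM in Sal_CP and 321 to 615 FPKM in CP. The smallest p among them belonged to Cd163, at 1.25, 0.815 and 0.678 FPKM in Sal_CP and 5.27, 2.73 and 3.76 FPKM in CP (log2 change -1.34, adjusted p 0.115 in limma), and to Aif1 (0.50, adjusted p 0.508). The groups of Cd163 did not overlap, and CP replicate 1 was its highest library. However, Cd163 passed the filter of 1 FPKM only through its CP libraries. The part of these markers in the level of Wfdc17 was not tested. Wfdc21, the other inflammation gene, reached 1.53 FPKM in CP replicate 1 and at most 0.502 FPKM elsewhere.

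Of the genes known from other epithelia or stroma, Spink5 was the most abundant. It encodes the multi-domain Kazal inhibitor of skin kallikreins and measured 16.4, 11.6 and 9.32 FPKM in Sal_CP and 17.3, 18.1 and 14.0 FPKM in CP (log2 change -0.40, adjusted p 0.543 in limma). Keratinocyte markers were low beside it: 3 of 12 were tested, 2 were listed at 0 (Dsg3 and Flg), and their sums were 8.50 to 10.1 FPKM in Sal_CP and 8.58 to 13.3 FPKM in CP. The smallest p among them belonged to Krt14 (-0.76) and Krt15 (0.57), both at an adjusted p of 0.464 in limma. Krt14 passed the filter of 1 FPKM only through CP replicate 3. Spink1, a trypsin inhibitor of pancreas that the seminal vesicle also makes in the mouse, measured 0.735, 1.15 and 0.998 FPKM in Sal_CP and 1.45, 1.09 and 1.71 FPKM in CP, with overlapping groups (log2 change -0.30, adjusted p 0.55 in limma). Its Sal_CP mean was 0.962 FPKM, so Spink1 passed the filter of 1 FPKM only through CP (mean 1.42 FPKM). Seminal vesicle and prostate markers summed to 6.98 to 8.14 FPKM in Sal_CP and 6.71 to 12.3 FPKM in CP, with 3 of 11 tested and 2 of these below 0. Svs4 had a log2 change of -0.91 (adjusted p 0.42 in limma) and Svs1 of 0.40 (adjusted p 0.521). Svs4 passed the filter of 1 FPKM only through its CP libraries. Wfdc1, known from prostate stroma, measured 1.94, 1.59 and 1.10 FPKM in Sal_CP and 3.13, 1.08 and 2.80 FPKM in CP. Wfdc3, at the end of the chromosome 2 cluster, measured 1.13, 2.22 and 1.79 against 1.27, 1.16 and 1.83 FPKM. The groups of both genes overlapped.

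The other 12 inhibitors averaged below 1 FPKM and were not in the limma fit. In 6 of them some library reached 1 FPKM. Spink14 reached 1.79 FPKM in Sal_CP replicate 2 and was lowest at 0.0410 in CP replicate 3. Spint4 (1.74 FPKM), Spink12 (1.54) and Spint5 (1.47) were each highest in CP replicate 3, where Spint4 had about 24.0 fragments by the smallest step of the values, and Spint4 was listed at 0 in 4 of the other libraries. Spink4, a gene of intestinal goblet cells, reached 1.19 FPKM in Sal_CP replicate 3. The groups overlapped in all 6, and two-sided exact permutation p-values ran from 0.4 to 1, where 3 against 3 allows none below 0.1. The remaining 6, among them Wfdc2, known in human as an epididymal secretory protein, stayed at or below 0.800 FPKM, and Spink7 was listed at 0 in every library.

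Upstream sequences of 6 inhibitors are shown because these genes span the range of responses: Slpi and Spint2 with groups apart, Wfdc10, Wfdc15b and Wfdc16 as abundant genes of the cluster, and Spink2 as the spermatid member. Each is the 250 bases before a RefSeq transcription start (GRCm38.p6), read 5′ to 3′ along the gene, and capitals mark matches to the motifs named after them.
Slpi: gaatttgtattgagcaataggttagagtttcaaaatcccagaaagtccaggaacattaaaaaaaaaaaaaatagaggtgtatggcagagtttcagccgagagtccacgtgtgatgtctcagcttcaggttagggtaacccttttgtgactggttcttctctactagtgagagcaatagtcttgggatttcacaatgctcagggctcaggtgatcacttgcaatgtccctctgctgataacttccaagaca
Spint2: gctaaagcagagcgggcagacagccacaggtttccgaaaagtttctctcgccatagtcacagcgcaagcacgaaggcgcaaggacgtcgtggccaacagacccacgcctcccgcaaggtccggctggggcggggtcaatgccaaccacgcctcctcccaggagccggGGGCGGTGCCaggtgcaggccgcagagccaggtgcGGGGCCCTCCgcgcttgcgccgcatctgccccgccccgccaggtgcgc
Wfdc10: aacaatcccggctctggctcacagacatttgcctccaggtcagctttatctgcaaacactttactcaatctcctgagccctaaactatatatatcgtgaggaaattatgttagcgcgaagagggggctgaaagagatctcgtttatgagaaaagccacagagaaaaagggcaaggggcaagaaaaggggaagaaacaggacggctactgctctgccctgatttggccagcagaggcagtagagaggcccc
Wfdc15b: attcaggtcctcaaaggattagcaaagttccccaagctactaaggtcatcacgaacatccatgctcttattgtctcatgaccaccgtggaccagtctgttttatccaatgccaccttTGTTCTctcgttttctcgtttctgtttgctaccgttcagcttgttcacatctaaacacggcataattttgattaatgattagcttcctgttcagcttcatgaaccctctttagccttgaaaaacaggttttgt
Wfdc16: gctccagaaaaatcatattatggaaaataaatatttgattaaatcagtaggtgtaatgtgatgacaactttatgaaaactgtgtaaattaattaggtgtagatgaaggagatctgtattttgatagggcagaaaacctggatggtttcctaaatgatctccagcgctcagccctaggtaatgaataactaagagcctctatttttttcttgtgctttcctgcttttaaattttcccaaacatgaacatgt
Spink2: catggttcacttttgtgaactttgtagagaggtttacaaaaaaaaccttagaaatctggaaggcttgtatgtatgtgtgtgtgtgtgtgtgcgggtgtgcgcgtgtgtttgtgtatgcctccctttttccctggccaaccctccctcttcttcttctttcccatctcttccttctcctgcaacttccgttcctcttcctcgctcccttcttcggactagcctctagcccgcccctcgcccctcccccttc
In order, these are chr2:164356508-164356757 (minus strand), chr7:29281978-29282227 (minus), chr2:164655796-164656045 (plus), chr2:164221664-164221913 (minus), chr2:164638803-164639052 (minus) and chr5:77211472-77211721 (minus). None of the 6 overlaps an annotated exon, but the Slpi window lies inside the longest GENCODE span of Slpi and the Wfdc10 window inside that of Wfdc9. Of the Spink2 starts, the most upstream is shown.

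The motifs, searched on both strands, were TATAAA (the TATA box), TGTTCT (a single arm of the androgen receptor site), TGACGTCA (the cyclic AMP response element), a loose NF-κB core (GGG, any 5 bases, CC) and an interferon response core (GAAA, any 2 bases, GAAA). Outside chromosome 18, 22 inhibitors had windows, and Spink2, Wfdc2, Wfdc6a and Wfdc8 had more than 1. An inhibitor was counted if any of its windows matched, while the shares over all windows are of single windows. Counts and shares are therefore not of the same unit. TATAAA was found in 3 of the 22 (Spint3, Wfdc8 and Wfdc18), against 12.4% of all 32851 windows. The matches began 161, 246 and 31 bases before the start, in that order, and the Wfdc8 window overlaps an exon of Wfdc6b. Whether any of them works as a TATA box was not tested. TGTTCT was found in 3 (Spint3, Wfdc11 and Wfdc15b), against 16.1% of windows. The NF-κB core was found in 12, among them both Spint1 and Spint2, against 45.8% of windows. Spink2 counted only through a window that overlaps its own exon, not the window shown. TGACGTCA and the interferon core were found in 0, against 1.55% and 2.98%. The windows differed widely in base composition. Spint1 and Spint2 had 72.8% and 69.6% G and C with 26 and 24 CpG dinucleotides, where the median window had 52.4% and 6. Slpi had 42.0% and 2, Wfdc15b 41.6% and 6, and Wfdc16 33.6% and 1, a G and C share below that of all but 3.5% of windows.

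Other inhibitor families gave a mixed picture. Of 24 serpins 13 were tested, 0 were called, and 11 lay below 0 against 60.5% of all genes, with a median of -0.74. Every Sal_CP library lay below every CP library in 7 of the 13, against 10.0% of all genes. Serpina3n had a log2 change of -1.82 (adjusted p 0.0882 in limma) and Serpinh1, a collagen chaperone, -1.46 (adjusted p 0.103). Of 15 cystatins, inhibitors of cysteine proteases, 5 were tested, 0 were called and 3 lay below 0. Cst3 had a log2 change of -0.79 (adjusted p 0.47) and the epididymal and testicular Cst8 0.56 (adjusted p 0.542). Among the 8 proteins listed as partners of Eppin or Spink2, Clu, which binds Eppin on human sperm, was called lower, at 124, 141 and 74.1 FPKM in Sal_CP and 772, 443 and 742 FPKM in CP (log2 change -2.53, adjusted p 0.0319 in limma). Of the 7 tested partners 2 lay below 0 and 5 above, with a median of 0.74, and limma called none but Clu. Groups stood apart in 4, of which 2 were lower and 2 higher in Sal_CP, against 10.0% and 7.21% of all tested genes. Acr and Acrbp, given above, are among the 5 that lay above 0. Ltf, another Eppin partner, ranged from 46.3 to 72.7 FPKM in Sal_CP and 99.8 to 134 FPKM in CP.

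Further marker lists bear on what the libraries held. Of the 27 listed epididymal markers, 13 were tested, 8 lay below 0 and 5 above (median -0.14), 0 were called, and the smallest p belonged to Crisp1 (-0.87, adjusted p 0.42 in limma) and Slc22a16 (0.70, adjusted p 0.444). Meiosis markers (5 of 18 tested, all above 0, median 0.54) included Sycp2 (0.59) and Syce1 (0.67), and proliferation markers (6 of 10 tested, 4 above 0) included Plk1 (0.74) and Bub1 (0.44). Sycp2 and Bub1 passed the filter of 1 FPKM only through their Sal_CP libraries. Leydig markers summed to at most 5.42 FPKM in any library, with Hsd17b3 listed at 0 and 2 of 8 tested, Insl3 (-1.41) and Star (-0.25). Both tested genes passed the filter of 1 FPKM only through their CP libraries. In the Sertoli list 4 of 13 were tested and all lay below 0, Clu alone was called, and Fshr and Defb45 were listed at 0.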

How the data were processed

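Total RNA of 6 libraries was made into strand-keeping libraries and sequenced as paired reads of 150 bases, per the labels' protocols. The submitters' processing notes name the build GRCm38. The aligner, quantifier and test have no name in the labels, headers or notes used here. The authors deposited FPKM for each gene and library, scaled by transcript length and library total. The deposited fold (ratio) column was within 1% of the ratio of group means for 100.0% of genes above 0 in both groups, and the deposited log2 values are logarithms of it. The p-value and q-value that the authors deposited come from that unnamed test. FPKM are relative to each library's total of fragments, and the FPKM values of a library summed to 565944 to 697070.

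FPKM times length, for genes with 1 annotated transcript, piled up at a smallest step and its multiples. Of values under 4.5 steps, 35.3 to 37.0% lay within 0.05 of a whole step, so whole reads were not recovered and no count test was run. Taking a step as 1 fragment gives the approximate depths.

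log2(FPKM + 1) was fitted for the 12241 genes averaging 1 FPKM or more with limma 3.58.1 (R 4.3.3), its prior variance following a trend, and adjusted by Benjamini-Hochberg over all of them (threshold 0.05). Genes averaging under 1 FPKM in 1 group passed the filter only through the other, which favours the direction of their change. A negative change means a lower level in Sal_CP, and ± gives the SD. Members below the filter had two-sided exact permutation tests on log2(FPKM + 1). Members with a mean of at least 1 FPKM were named with all values, and those that reach 1 FPKM in some library with their highest value. Of 16 further gene lists, called genes or else the 2 of smallest p were named. Wfdc17 and Csf1r, St14, Ltf and the marker genes of the third paragraph were set side by side after their values were seen. The members, classes and lists were chosen with earlier results of these data known. Gene IDs matched GENCODE M21 in 99.67% of cases, and motif windows come from RefSeq. The limma step was tested on simulated data. Alternatives were pseudocounts, filters, scalings, limma options, a replicate block and each library left out. Figures were drawn with matplotlib 3.10.9.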

Additional observations from a re-analysis of the deposited data

How the results depend on the processing

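Over 18 alternatives, 414 of 443 log2 changes of the 25 tested inhibitors kept their sign and their side of the limma threshold, 6 newly passed it and 23 changed sign. Slpi passed after removal of mitochondrial genes with rescaling (-2.00, adjusted p 0.0412), with libraries scaled to equal spermatid marker sums (-2.25, adjusted p 0.00591) and with a replicate block (-1.80, adjusted p 0.00731). Spink11 passed with the last 2 (-1.70, adjusted p 0.0404, and -1.48, adjusted p 2.6e-05) and Spink8 with the spermatid scaling (-1.96, adjusted p 0.0132). Over all alternatives adjusted p ran from 0.00591 to 0.627 for Slpi, 2.6e-05 to 0.627 for Spink11 and 0.0132 to 0.682 for Spink8, and their changes stayed below 0. The count of inhibitors called was 0, and 1 with mitochondrial genes removed, 3 with the spermatid scaling and 2 with the replicate block. The count over all genes was 9, and 0 without a filter, 14 with mitochondrial genes removed, 0 by median of ratios, 5 by quantile normalization, 54 with the spermatid scaling, 280 with the replicate block, and 0 to 13 with 1 library left out (0 without Sal_CP replicate 1, 1 without Sal_CP replicate 2). Same-numbered libraries deviated together at r = 0.196, -0.115 and -0.0644, so the numbers were not taken to pair them, and the block changed no other inhibitor's call. The spermatid scaling moved the median of all genes from -0.12 to -0.43 and that of the epididymal members from -0.26 to -0.64 (median of ratios gave -0.10, and the removal of mitochondrial genes -0.43; with 1 library left out it ran from -0.48 to -0.11), and the removal of mitochondrial genes moved the former to -0.27. Signs changed with mitochondrial genes removed for Wfdc16 (-0.12), Wfdc13 (-0.080) and Wfdc8 (-0.11), by quantile normalization for Wfdc16 (-0.053), by median of ratios for Spink10 (0.0033) and Eppin (0.11), and with the spermatid scaling for Wfdc16 (-0.40), Wfdc13 (-0.36), Wfdc8 (-0.37), Wfdc6a (-0.25) and Wfdc3 (-0.15). With 1 library left out, changes ran from -0.14 to 0.27 for Wfdc16, -0.96 to 0.90 for Wfdc13, -0.38 to 0.053 for Spink10, -0.063 to 0.28 for Wfdc8, -0.048 to 0.35 for Wfdc6a and -0.49 to 0.31 for Eppin, and those of Wfdc17 from -1.73 to -0.58. Spink2 stayed above 0 at every setting (0.33 to 1.04) and passed at none. The cause of these shifts was not tested. The log2 difference of the epididymal to Spink2 ratio ran from -2.08 to -1.23. For the members below 1 FPKM, 3 libraries against 3 allow no permutation p below 0.1.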

Other observations

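The following ratios between inhibitors of the same library were chosen after their values were seen, because they separate the groups, and some share a gene. They are a description of these pairs, with no test. Spink8 was 1.69, 1.41 and 1.24 times as abundant as Wfdc10 in Sal_CP and 3.20, 2.22 and 2.67 times in CP. Against Wfdc15b it was 1.78, 1.14 and 1.36 times as abundant in Sal_CP and 2.98, 2.39 and 3.37 times in CP. Wfdc10 was 1.96, 2.39 and 2.47 times as abundant as Wfdc16, a gene of the same dense stretch, in Sal_CP and 3.54, 3.31 and 3.98 times in CP. In each of these 3 ratios the Sal_CP libraries all lay below the CP libraries. Slpi was 0.989, 1.57 and 2.58 times as abundant as Spint2 in Sal_CP and 4.54, 2.96 and 2.89 times in CP, without overlap.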
